A study of Mus musculus with 41 samples.

Results

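Trophoblast-associated genes were followed across the RNA-seq libraries of androgenetic haploid embryonic stem cells (AG-haESCs). These cells carry only a sperm genome. The set holds 10 genes, Cdx2, Elf5, Eomes, Tfap2c, Gata3, Hand1, Ascl2, Krt8, Krt18 and Tead4, which were chosen by symbol from the 24028 gene symbols of the series. All 10 were found, each on a single row.

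Trophoblast is the lineage that builds the placenta, and it separates from the inner cell mass in the blastocyst. Tead4, a DNA-binding partner of the Hippo effector Yap, acts upstream of Cdx2, and Gata3 acts beside Cdx2 in the trophectoderm. Elf5, Eomes and Tfap2c take part in the network of trophoblast stem cells. Hand1 and Ascl2 act in differentiated trophoblast, and Krt8 and Krt18 encode the partner keratins of simple epithelia, the trophectoderm included.

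The study asked how culture medium bears on paternal imprints in AG-haESCs. All libraries are labelled as strain C57BL/6 haploid cells. 2i/L medium holds serum, LIF and inhibitors of Mek1/2 and Gsk3, whereas the TSa2i/L protocol starts with serum and then keeps cells in serum-free SF/a2i/L medium, with LIF and inhibitors of Src and Gsk3. Wild-type cells in 2i/L were line 2i-14, sequenced at p18, p39 and p50 (3 libraries). Wild-type cells in TSa2i/L came from line TSa2i-14, sequenced at p22, p47 and p54, and from line TSa2i-C57, sequenced at p9 and p58 (5 libraries in all). Passages are given in these orders throughout. The paper lists the background of TSa2i-14 as C57BL/6/actin-EGFP and that of TSa2i-C57 as C57BL/6. Line 2i-O48 lacks both the H19-DMR and the IG-DMR, and line 2i-O48-TKO lacks the H19 gene as well, with 1 library each in 2i/L. Each of the 3 lines in 2i/L was sequenced once more 5 passages after its transfer to SF/a2i/L, and these libraries are called switched. Each wild-type line is a single derivation. By its name and deletions, 2i-O48-TKO may share its source with 2i-O48, so their switch pairs may not be independent. Passages of a line are not independent lines, and medium, serum and line cannot be told apart in the comparison of TSa2i/L with 2i/L. Lines were derived on mouse fibroblast feeders and enriched for haploid cells by sorting.

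Levels are given as FPKM, fragment numbers scaled by transcript length and by library size, so they can be compared between genes. The depth implied by the smallest values was 12700000 to 20000000 fragments per library. For a transcript of 1 kb, 3 fragments then correspond to 0.1497 to 0.2361 FPKM, which covers counting error only and is approximate because the annotation behind the values is not stated. Between 9258 and 10320 genes per library reached an FPKM of 1. In bulk RNA, fewer cells expressing a gene and less RNA per cell cannot be told apart.

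The pluripotency markers fitted the labelled cell type. All 12 genes of that list, Pou5f1, Sox2 and Nanog among them, had an FPKM of at least 1 in every library, and Pou5f1 stood between 59.6 and 168 FPKM. Among 30 other trophoblast genes, 5 were listed at 0 in all 13 libraries. These were Tpbpa, a spongiotrophoblast marker, Synb, a fusion protein of the syncytiotrophoblast, and Prl3b1, Ctsq and Hsd3b6. The giant cell hormone Prl3d1 was listed at 0 in all libraries except 2i-14 p50, where it was 0.0795 FPKM. 9 of the 30, including Id2, Elf3 and Plet1, had an FPKM of at least 1 in every library.

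The members divided into nearly silent and expressed genes. Elf5 never exceeded 0.0334 FPKM and was under the value of 3 fragments in all 13 libraries. Cdx2 was listed at 0 in all 5 TSa2i/L libraries, and also in 2i-14 p50, switched 2i-14 and switched 2i-O48-TKO. Its only values above 3 fragments came from 2i/L cultures, 0.251 FPKM in 2i-14 p18, 0.122 in 2i-O48 and 0.103 in the TKO line, or about 7.71, 5.505 and 4.35 fragments. Hand1 was under 3 fragments in 10 libraries and was highest in 2i-O48, at 0.253 FPKM. Thus none of these 3 genes reached 1 FPKM in any library, and their differences were close to the limit of detection.

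Eomes was low but above 3 fragments in every library, and Gata3 was so in all except the 3 switched ones. Over the 13 libraries the median was 0.612 FPKM for Gata3 and 0.639 FPKM for Eomes. Tead4 was present in every library, from 0.804 FPKM in switched 2i-14 to 2.71 in TSa2i-C57 p58, with a median of 1.61. Ascl2 ranged from 0.849 to 6.12 FPKM with a median of 3.31. Only Tfap2c, Krt8 and Krt18 had an FPKM of at least 1 in all 13 libraries. Krt18 had the highest median of the set, 12.8 FPKM, followed by Tfap2c at 7.58 and Krt8 at 4.35. The ranges of neighbours in this order overlapped, and Tead4 above Eomes was the only adjacent pair whose order held in each of the 13 libraries. Krt18 was above Tfap2c in 11 libraries, Tfap2c above Krt8 in 11, Krt8 above Ascl2 in 9 and Ascl2 above Tead4 in 9.

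**Figure D1:**
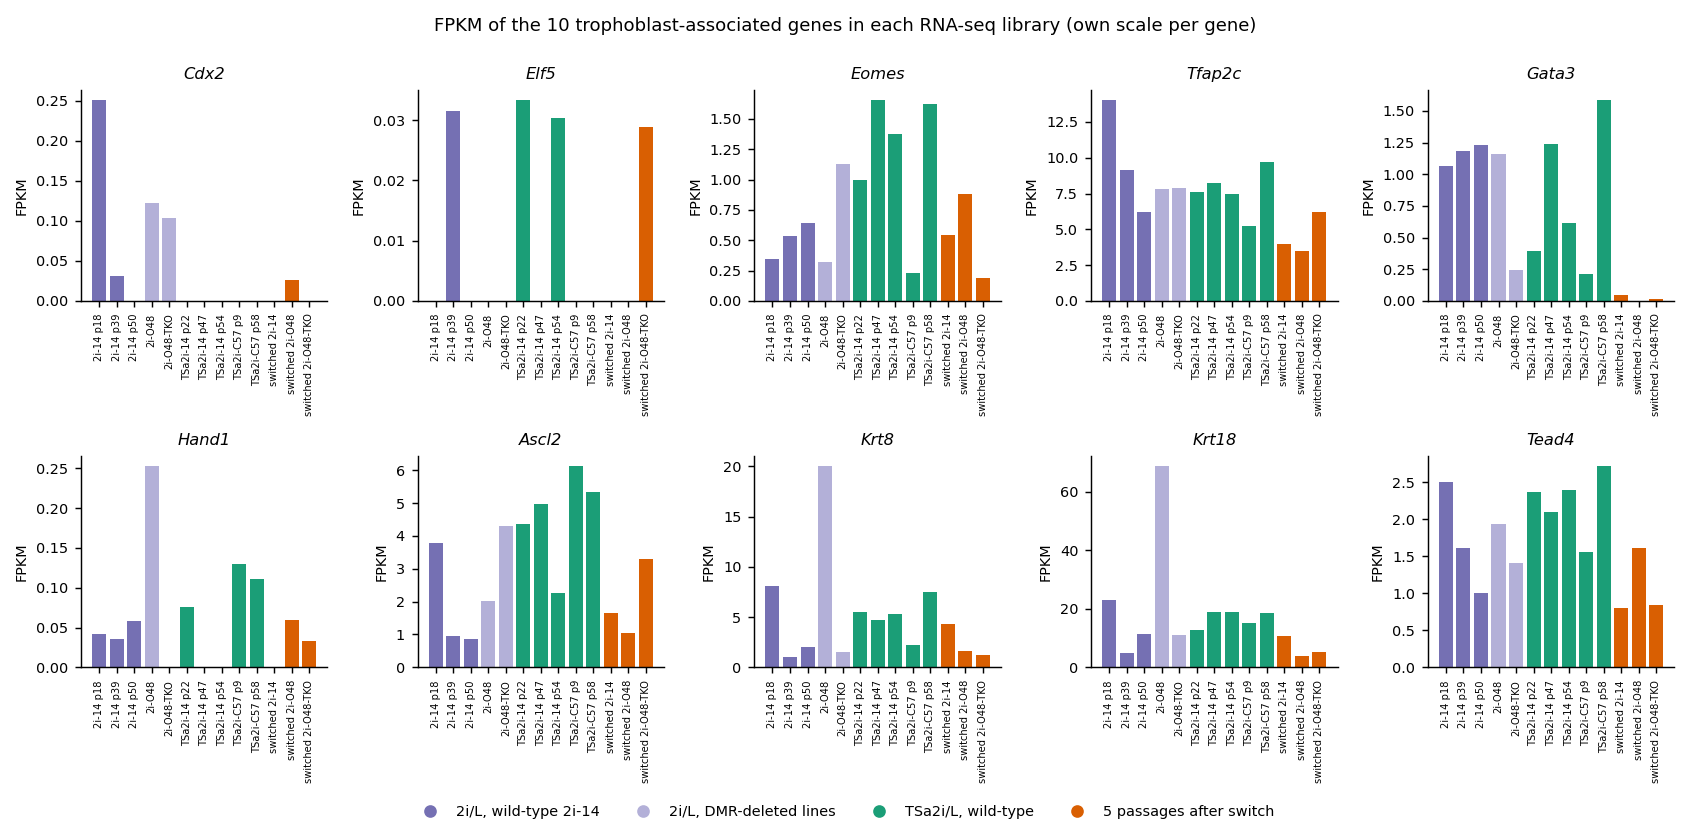
Bars give the FPKM of each of the 10 genes in each of the 13 libraries, with a separate linear scale from 0 for each gene and colours for medium and genotype. A missing bar is a value listed at 0, as for Cdx2 in all 5 TSa2i/L libraries, and the tallest Krt8 and Krt18 bars are those of 2i-O48.

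Levels of Krt8 and Krt18 varied together. The genes are neighbours on mouse chromosome 15 of NCBIM37 (mm9), Krt8 at chr15:101827142-101834773 on the minus strand and Krt18 at chr15:101858647-101862457 on the plus strand, 23874 bp apart. Krt8 was 8.04, 1.07 and 2.04 FPKM in the 3 passages of 2i-14. It was 5.54, 4.74 and 5.28 FPKM in TSa2i-14 and 2.23 and 7.54 in TSa2i-C57. Its highest level, 20.01 FPKM, was in 2i-O48, against 1.51 in 2i-O48-TKO. Krt18 had its highest level in the same library, 68.7 FPKM, and was 23.2, 5.03 and 11.2 FPKM in 2i-14. Among the 2i-14 libraries both genes were thus highest at p18 and lowest at p39. The ratio of Krt18 to Krt8 FPKM stayed between 2.31 and 7.26, with a median of 3.56. Across the 13 libraries Pearson's r of log2(FPKM + 1) was 0.900 and Spearman's rho 0.857. Without 2i-O48 and 2i-14 p39, the libraries farthest from the median of Krt8, r was 0.781 over 11 libraries. Libraries of a line share their source, so these values are descriptions.

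**Figure D2:**
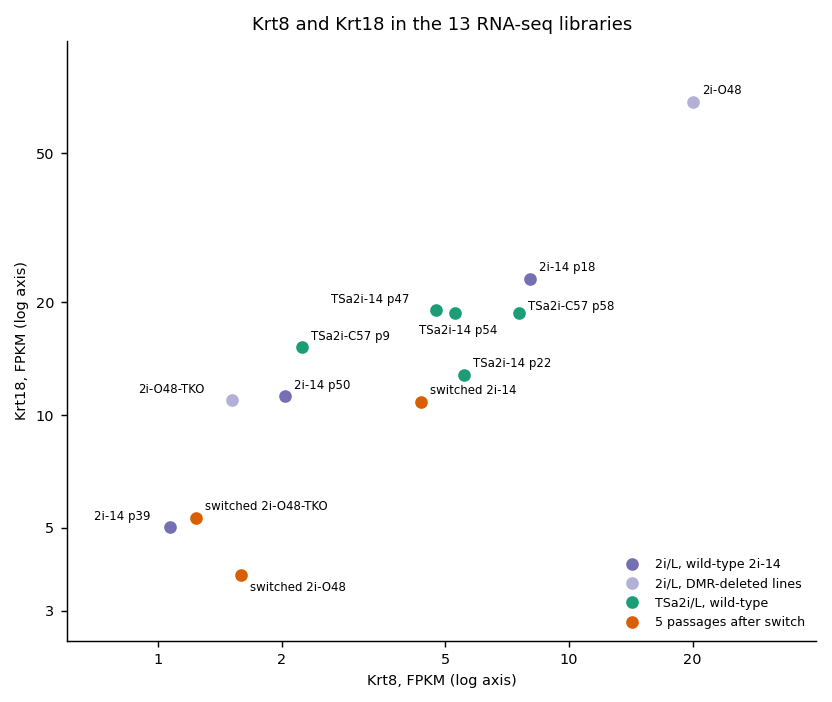
Each point is a library, with the FPKM of Krt8 on the horizontal and of Krt18 on the vertical axis, both logarithmic. Krt18 lay above Krt8 in every library, and 2i-O48 stood highest on both axes at 20.01 and 68.7 FPKM.

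Promoters are shown for the keratin pair, which varied together, and for Gata3, which was close to the detection limit after the switch. RefSeq windows on GRCm38.p6, from 250 bases before to 50 bases after the start, were held for 7 of the 10 members. In the keratin sequences capitals mark TATAA and the AP-2 motif GCCNNNGGC, and in Gata3 they mark the AP-2 motif. Matches were taken on both strands. The Krt8 window lies at chr15:102004293-102004592 (minus), the Krt18 window at chr15:102027966-102028265 (plus) and the Gata3 window at chr2:9878551-9878850 (minus).
Krt8: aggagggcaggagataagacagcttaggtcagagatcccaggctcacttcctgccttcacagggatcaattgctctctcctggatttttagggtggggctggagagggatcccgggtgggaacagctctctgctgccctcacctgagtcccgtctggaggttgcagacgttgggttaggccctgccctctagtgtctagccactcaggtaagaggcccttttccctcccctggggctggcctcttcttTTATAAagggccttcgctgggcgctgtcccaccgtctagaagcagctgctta
Krt18: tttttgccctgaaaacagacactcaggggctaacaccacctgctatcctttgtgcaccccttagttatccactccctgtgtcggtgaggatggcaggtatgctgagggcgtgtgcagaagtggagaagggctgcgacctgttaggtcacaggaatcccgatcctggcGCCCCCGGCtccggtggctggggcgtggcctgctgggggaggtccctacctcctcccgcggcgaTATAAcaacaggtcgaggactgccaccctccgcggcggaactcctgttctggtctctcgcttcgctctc
Gata3: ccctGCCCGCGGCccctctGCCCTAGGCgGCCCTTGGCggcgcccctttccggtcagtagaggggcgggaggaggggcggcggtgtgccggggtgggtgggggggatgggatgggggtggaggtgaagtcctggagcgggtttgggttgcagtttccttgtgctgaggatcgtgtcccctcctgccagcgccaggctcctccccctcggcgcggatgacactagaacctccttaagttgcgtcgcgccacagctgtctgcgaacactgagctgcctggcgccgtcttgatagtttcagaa
Krt18 had 1 TATAA match and Krt8 had 2 overlapping ones, TATAA on each strand, a motif found in 24.9% of all 32851 promoters. The AP-2 motif, which is bound by the family of Tfap2c, occurred 3 times in Gata3, once in Krt18 and not in the Krt8 window, and 16.6% of all promoters hold it. A motif of the family of Gata3, AGATAA, is held by 11.2% of promoters and was matched in the Krt8 window but not in that of Gata3. For the Tead family, whose motif is held by 14.7% of promoters and reads GGAATG, none of the 3 windows had a match. A match is a stretch of letters and not evidence of binding. Gata3 and Ascl2 were CpG-rich, with 22 and 23 CpG in 300 bases, against a median of 7 over all promoters. Krt18 had 17 CpG and Krt8 had 6.

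The first comparison asked whether TSa2i/L culture, at early and late passages together, differed from 2i/L in wild-type cells. Ascl2, a transcription factor of the spongiotrophoblast that is imprinted and expressed from the maternal allele in placenta, showed the largest difference in the set. It lies at chr7:150152727-150155169 on the minus strand of NCBIM37. It was 4.37, 4.98 and 2.27 FPKM in TSa2i-14 and 6.12 and 5.34 in TSa2i-C57. In 2i-14 it was 3.78 FPKM at p18 but 0.959 and 0.849 at p39 and p50. The groups overlapped, since 2i-14 p18 was above TSa2i-14 p54. Mean FPKM was 4.62 ± 1.46 (SD, n = 5) in TSa2i/L and 1.86 ± 1.66 (SD, n = 3) in 2i/L. The log2 change was 1.07 (SE 0.34), and limma gave an adjusted p = 0.0808, which missed the threshold of 0.05.

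None of the 7 members tested passed, where 7.57% of the 10387 genes tested did (786 genes, 594 higher and 192 lower in TSa2i/L). Members were tested where FPKM was at least 1 in 3 of the 8 libraries, and Cdx2, Elf5 and Hand1 were not. An unadjusted p under 0.05 was reached by 1 of the 7, Ascl2, and by 2400 of all genes. None of the 7 had groups that did not overlap, against 16.5% of all genes tested. The median log2 change was 0.48 over the 7 members and 0.07 over all genes tested. Median centring moved the latter to -0.05, and the share of called genes that were higher in TSa2i/L was 75.6% as deposited, 56.2% with median centring and 55.7% with quantile normalization. Changes of the members are read against that shift. The 786 calls dropped to 440 without TSa2i-14 p47 and to 508, 383 and 454 without p18, p39 or p50 of 2i-14.

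Ascl2 was at the edge of the call. Its adjusted p was 0.0180 without 2i-14 p18, with a log2 change of 1.51, and 0.0457 without TSa2i-14 p54. Without p18 the remaining 2i-14 values, 0.959 and 0.849 FPKM, were under 1. Ascl2 then passed the filter by TSa2i/L values alone, so that fit is not taken as a call. With no filter on low values its adjusted p was 0.202. With the mean of the fibroblast list as a covariate it was 0.0426. In that fit and in the fit without TSa2i-14 p54, only 1 of the 3 values of 2i-14 reached 1 FPKM. TSa2i/L values alone met the filter there as well, so neither fit is taken as a call. Over all alternatives tried the log2 change was between 0.82 and 1.51 and the adjusted p between 0.0180 and 0.261.

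Eomes is a T-box factor of trophoblast stem cells. Eomes was 0.348, 0.532 and 0.639 FPKM in 2i-14, and 0.997, 1.66 and 1.37 in TSa2i-14. TSa2i-C57 had both a low value, 0.228 FPKM at p9, and a high one, 1.63 at p58. Thus 4 of the 5 TSa2i/L libraries were above every wild-type 2i/L library, and the remaining one was below them. The log2 change was 0.48 (SE 0.25, adjusted p = 0.278), and without TSa2i-C57 p9 it was 0.68 with an adjusted p = 0.0483, the lowest of a range that reached 0.493 over the alternatives. Eomes was under 1 FPKM in all 3 libraries of 2i-14 and passed the filter by TSa2i/L values alone, so this fit is not taken as a call.

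Gata3 was steady in 2i-14, at 1.06, 1.19 and 1.23 FPKM, and spread widely in TSa2i/L. There it was 0.396, 1.24 and 0.612 FPKM in TSa2i-14 and 0.215 and 1.59 in TSa2i-C57. The difference of -0.31 (SE 0.24) on the log2 scale was not called (adjusted p = 0.495). Tfap2c, which encodes AP-2 gamma and is also expressed in germ cells and naive ESCs, had a mean of 9.81 ± 3.95 FPKM (SD, n = 3) in 2i/L, against 7.64 ± 1.62 (SD, n = 5) in TSa2i/L. Mean Tead4 levels were 1.70 ± 0.76 FPKM (SD, n = 3) in 2i/L, against 2.23 ± 0.44 (SD, n = 5) in TSa2i/L. Neither differed by more than the spread between libraries.

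The keratins did not separate the media. The log2 change was 0.59 (SE 0.43) for Krt8 and 0.55 (SE 0.36) for Krt18, with adjusted p = 0.467 and adjusted p = 0.402. Both values hung on single 2i-14 libraries. Without p18 they were 1.21 (adjusted p = 0.0692) and 1.046 (adjusted p = 0.0631), and without p39 they were 0.14 and 0.04. Fibroblast RNA differed between these libraries. The summed FPKM of the 15 fibroblast genes was 244, 443 and 188 in 2i-14, 204, 302 and 425 in TSa2i-14, and 211 and 318 in TSa2i-C57. Sparc, which ESCs express too, was the most abundant gene of that list in each library. The collagen gene Col3a1 was listed at 0 at p18 and p50 of 2i-14, at p47 of TSa2i-14 and in early TSa2i-C57. Between 11 and 14 of the 15 genes reached an FPKM of 1 in 2i-14 p39, TSa2i-14 p54 and TSa2i-C57 p58, and 3 to 5 in the other 5 libraries. Without those 3 libraries the log2 change was -0.08 for Krt8, -0.06 for Krt18 and 1.04 for Ascl2. With the fibroblast list as a covariate it was 0.61 for Krt8 and 0.58 for Krt18, close to the values without it.

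**Figure D3:**
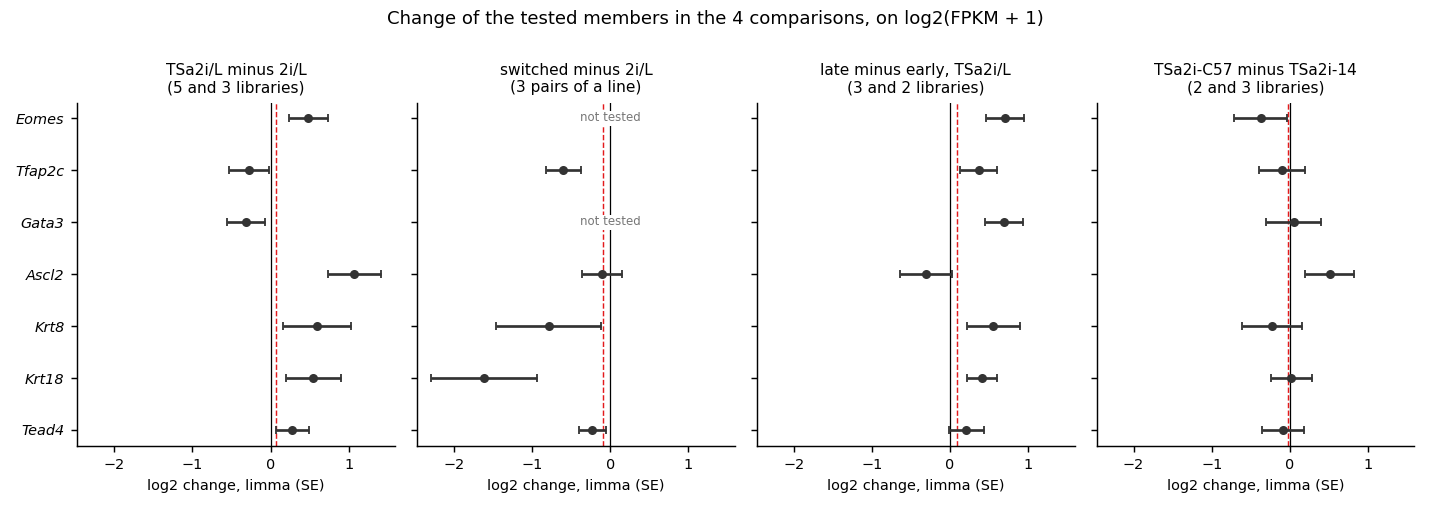
Points give limma's log2 change of each tested member with its SE in 4 comparisons, on log2(FPKM + 1), and the dashed line marks the median of all genes tested. No member passed an adjusted p of 0.05 in these comparisons, and Krt18 after the switch had the largest difference, -1.61.

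The second comparison asked what differed after transfer of a line out of 2i/L, with each of the 3 lines as its own control. Line 2i-14 was represented by p50, its latest passage sequenced in 2i/L. Passage numbers of the DMR-deleted lines and of all switched cells are unknown. Nothing shows that pairs match in passage, or that p50 was the culture transferred. "Before the switch" therefore names only the 2i/L library of a line. Gata3 lies at chr2:9778705-9811661 on the minus strand of NCBIM37 and encodes a zinc finger factor of the trophectoderm. It was 1.23 FPKM in 2i-14 p50 and 0.0469 after the switch. Line 2i-O48 had 1.16 FPKM before the switch and was listed at 0 after it, and 2i-O48-TKO had 0.245 and 0.0182 FPKM. All 3 values in 2i/L stood on about 75.6, 74.6 and 14.7 fragments, while all 3 switched values were under the 3-fragment values of 0.0474, 0.0499 and 0.0552 FPKM, so no fold is given. The lowest TSa2i/L value, 0.215 FPKM in TSa2i-C57 p9, was above all switched values. That difference was not tested.

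Gata3 did not enter the test of the pairs, because only 2 of the 6 libraries reached an FPKM of 1. With no filter on low values its log2 change was -0.83 (SE 0.20, adjusted p = 0.197), in a fit in which limma called none of 18837 genes and 3206 had an unadjusted p under 0.05. When p18 and p39 of 2i-14 joined p50 as controls, Gata3 entered the test and had -0.85 (SE 0.19, adjusted p = 0.0222), and without 2i-O48-TKO it had -1.10 (SE 0.27, adjusted p = 0.0474). It passed the filter there by its 2i/L values alone, and the added controls are passages of a single line, so neither fit is taken as a call for Gata3.

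None of the 5 members tested passed in the switch, where 6.89% of 9759 genes did (672 genes, 217 higher and 455 lower after the switch). An unadjusted p under 0.05 was reached by 1 of the 5, Tfap2c, and by 2550 of all genes. Tfap2c, Krt18 and Tead4 were lower in all 3 pairs, 3 of 5 members tested, as were 29.4% of all genes tested. The median log2 change was -0.60 over the 5 members and -0.09 over all genes. Median centring moved the latter to 0.07, and the share of called genes that were higher after the switch from 32.3% to 55.1%, or to 45.3% with quantile normalization. The 672 calls became 1031, 1461 and 311 without 2i-14, 2i-O48 or 2i-O48-TKO.

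Tfap2c was 6.22, 7.81 and 7.88 FPKM before the switch, with 2i-14 p50 first and 2i-O48-TKO last, and 3.96, 3.50 and 6.23 after it. The values before the switch were thus 1.57, 2.23 and 1.26 times those after it. All pairs pointed the same way, but the sizes differed between lines, and the log2 change of -0.60 (SE 0.22) was not called (adjusted p = 0.154). Tead4 was 0.999, 1.93 and 1.41 FPKM before and 0.804, 1.61 and 0.841 after the switch (log2 change -0.23, SE 0.17, adjusted p = 0.436).

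Krt18 differed most in 2i-O48, where it was 68.7 FPKM before and 3.75 after the switch, 18.3-fold lower. The TKO line had 10.97 and 5.32 FPKM, and 2i-14 had 11.2 and 10.9, so the sizes differed widely between lines. The log2 change was -1.61 (SE 0.68, adjusted p = 0.194). Krt8 was 20.01 FPKM in 2i-O48 and 1.59 after the switch, 12.6-fold lower, yet it was 2.04 FPKM in 2i-14 p50 and 4.35 after the switch. At p18 of 2i-14 Krt8 was 8.04 FPKM, above the switched value, and at p39 it was 1.07, below that value. The TKO line had 1.51 and 1.24 FPKM. Without 2i-14 both keratins were called, Krt8 at -1.59 (adjusted p = 0.0428) and Krt18 at -2.40 (adjusted p = 0.00527). Without 2i-O48 the change of Krt8 was 0.33 and that of Krt18 -0.48, and neither was called. Adjusted p over the alternatives reached 0.654 for Krt8 and 0.413 for Krt18. The summed fibroblast list was 188, 120 and 144 FPKM before the switch and 85.0, 81.4 and 80.2 after it. Sparc made up most of that sum and was lower in all 3 pairs (log2 change -1.19, SE 0.18, adjusted p = 0.0204). The mean log2(FPKM + 1) of the list was 1.063 in 2i-14 p50 and 0.991 after the switch. It was higher after the switch in 2i-O48 (0.974 and 1.155) and in 2i-O48-TKO (1.079 and 1.121). The part of Sparc and of the list in these results was not tested.

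With p50 as the 2i-14 control, Ascl2 and Eomes did not move one way. Ascl2 was 0.849 FPKM in 2i-14 p50 and 1.66 after the switch, 2.01 and 1.06 for line 2i-O48, and 4.29 and 3.31 for the TKO line. At p18 of 2i-14 Ascl2 was 3.78 FPKM, above the switched value, and at p39 it was 0.959, below that value. Its log2 change of -0.11 (SE 0.25, adjusted p = 0.827) turned to 0.06 with median centring. Eomes, with 0.639 and 0.543 FPKM in 2i-14, 0.317 and 0.884 for line 2i-O48 and 1.13 and 0.190 for the TKO line, was too low to be tested.

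**Figure D4:**
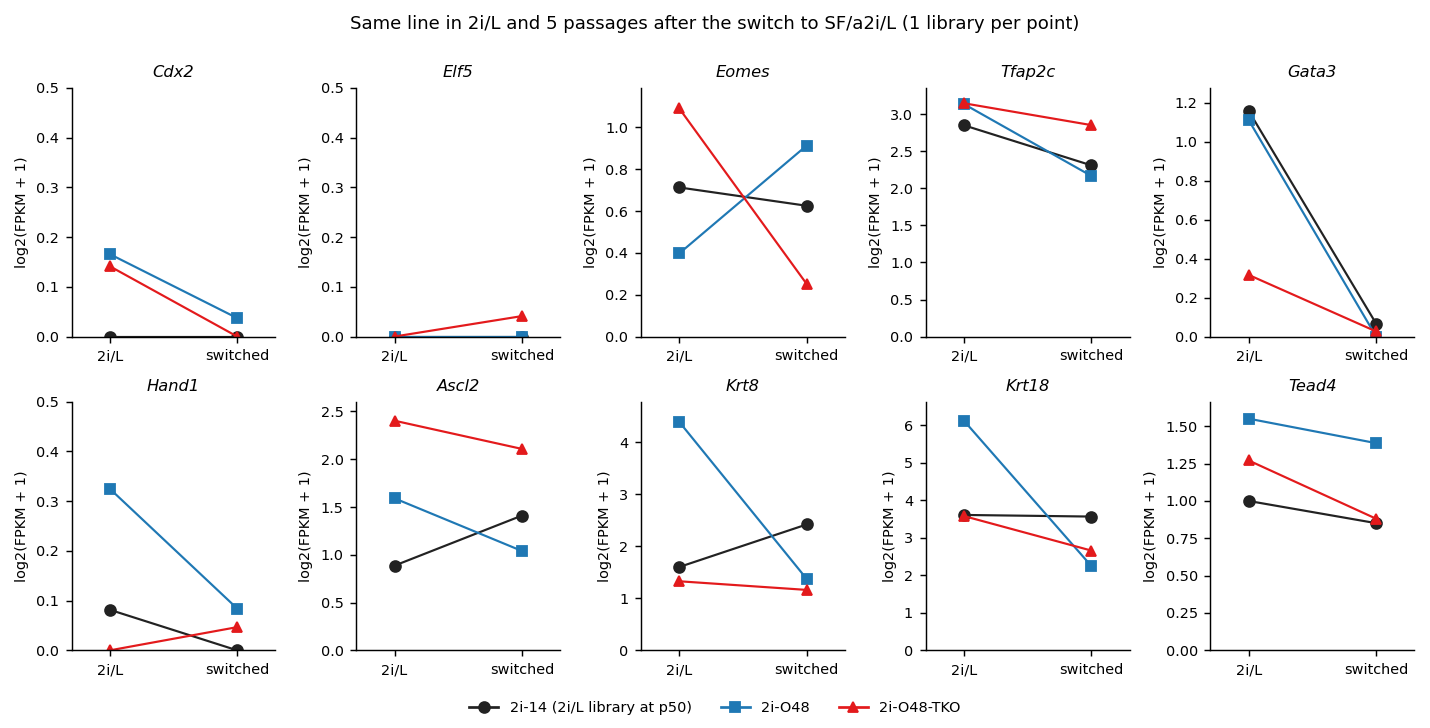
Lines join the log2(FPKM + 1) of a gene in 2i/L and 5 passages after the switch, with a line for each of the 3 cell lines and each point being a single library. Gata3 ended near 0 in all 3 lines, and the keratins were steepest in 2i-O48.

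Within TSa2i/L, late passages (p47, p54 and p58) were compared with early ones (p9 and p22), with the division at p30 that the study uses. Gata3, Eomes and Krt18 were higher in all late than in all early libraries, 3 of 7 members tested, a separation of the groups that 28.2% of all 10502 genes tested showed. Gata3 and Eomes were under 1 FPKM in both early libraries and passed the filter by late ones alone, so nothing is read from their separation or their p. Gata3 was 0.396 and 0.215 FPKM early and 1.24, 0.612 and 1.59 late. Its log2 change was 0.69 (SE 0.25, adjusted p = 0.530). That of Eomes was 0.70 (SE 0.25, adjusted p = 0.530), but 0.35 without TSa2i-C57 p9 and 1.053 without TSa2i-14 p22, and that of Krt18 was 0.41 (SE 0.20, adjusted p = 0.572). Neither the 7 members nor any other gene passed (0% of genes called by limma), although 2 members, Gata3 and Eomes, and 928 of all genes had an unadjusted p under 0.05. The fit without TSa2i-14 p47 called 8 genes, and the fits without any other library called none. The fibroblast list had a median log2 change of 1.11 in the same comparison, against 0.41 over the members and 0.09 over all genes. Its summed level was 204 and 211 FPKM early and 302, 425 and 318 late, but Sparc alone was 255 of the 302 in TSa2i-14 p47. The mean log2(FPKM + 1) of the list was 1.294 in p47, against 1.425 in p22 and 1.129 in p9. It was 3.269 in p54 and 2.354 in p58, so not all late libraries were rich in the list. The part of the list in the members' values was not tested.

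Between the TSa2i/L lines, TSa2i-C57 against TSa2i-14, limma again called 0% of 10502 genes and none of the 7 members. Without TSa2i-14 p54 it called 9 genes and without TSa2i-C57 p9 it called 1. None of the 7 had an unadjusted p under 0.05, against 366 of all genes. Ascl2 was the only one of the 7 whose lines did not overlap, as 15.9% of genes did not. It was 6.12 and 5.34 FPKM in TSa2i-C57 and 2.27 to 4.98 in TSa2i-14 (log2 change 0.51, SE 0.31, adjusted p = 0.999, and 0.25 without TSa2i-14 p54). For Krt8 the p9 and p58 libraries of TSa2i-C57, at 2.23 and 7.54 FPKM, lay on either side of all 3 TSa2i-14 libraries.

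Genes of the placental lineage outside the set were read from the same fits. Of 30 other trophoblast genes 13 could be tested between the media, 2 were higher and 1 lower in TSa2i/L, where 7.57% of all genes were called. The other 10 were not called, and the count was not tested against that of the members. Phlda2, an imprinted gene that restrains placental growth, was 26.3, 17.2 and 12.0 FPKM in 2i-14 and 52.8 to 81.1 in TSa2i/L (log2 change 1.85, SE 0.24, adjusted p = 0.00173). Rhox6, a placenta-expressed homeobox gene, was 5.86, 26.3 and 26.7 FPKM in 2i-14 and 34.0 to 70.0 in TSa2i/L (log2 change 1.80, SE 0.43, adjusted p = 0.0281). Phlda2 was called in 19 of 19 alternatives. Rhox6 was not called without p47 or p54 of TSa2i-14, without the 3 fibroblast-rich libraries (adjusted p = 0.0845), with no filter (0.108), or with the lines 2i-O48 and 2i-O48-TKO added (0.496). Those lines had 200 and 55.5 FPKM in 2i/L, the former above every TSa2i/L library. Without 2i-14 p18 the log2 change of Rhox6 was 1.14. The gene that was lower was Msx2, whose groups overlapped and which is named after its value was seen. Its log2 change was -1.11 (adjusted p = 0.0288, called in 11 of 18 alternatives). Msx2 was 1.065, 3.022 and 2.524 FPKM in 2i-14 and 0.2086 to 1.237 in TSa2i/L, so its 2i/L values alone met the filter. It is therefore counted but not taken as a call, and with no filter its adjusted p was 0.0927. The median log2 change of the 13 was 0.21.

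After the switch 12 of the 30 were tested, 1 was higher and 3 were lower, where 6.89% of all genes were called. Phlda2 was again higher, at 12.0, 6.77 and 11.7 FPKM before and 82.2, 96.4 and 86.9 after the switch (log2 change 3.04, SE 0.25, adjusted p = 0.00474). The media and switch comparisons share 2i-14 p50. Tinagl1, a matrix protein, was 9.59, 7.13 and 9.68 FPKM before and 0.137, 0.290 and 0.382 after (log2 change -2.94, SE 0.20, adjusted p = 0.00269). Like Gata3, Tinagl1 passed the filter by its 2i/L values alone, so it is counted among the 3 lower genes but not taken as a call. With no filter its adjusted p was 0.143. The epithelial Ets factor Elf3 was 64.1, 58.4 and 85.9 FPKM before and 10.4, 13.04 and 25.6 after (log2 change -2.10, SE 0.22, adjusted p = 0.00977). Ets2, which acts in trophoblast stem cells, was 4.03, 6.36 and 4.31 FPKM before and 1.16, 2.49 and 2.22 after (log2 change -1.005, SE 0.20, adjusted p = 0.0413). Ets2 was not called with either scaling, nor without 2i-14 or without 2i-O48-TKO (adjusted p up to 0.127), nor with no filter (0.171). Phlda2 and Elf3 were called in all alternatives except the fit with no filter, which called no gene. The median log2 change of the 12 was -0.98.

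Of 16 epithelial and keratin genes 12 were tested in both comparisons. Between the media 3 were higher in TSa2i/L and none lower, beside the 7.57% over all genes. Krt7, a simple-epithelial keratin of trophoblast, was 0.669, 1.38 and 1.15 FPKM in 2i-14 and 5.33 to 8.69 in TSa2i/L (log2 change 1.99, SE 0.20, adjusted p = 0.000398). The tight junction gene Cldn4 was 16.1 to 46.6 FPKM in 2i-14 and 60.0 to 123 in TSa2i/L (log2 change 1.57, SE 0.33, adjusted p = 0.0162). Krt7 was called in 18 of 18 alternatives, whereas Cldn4 was not called without p18 of 2i-14 (adjusted p = 0.0569), without p39 (0.0703), without the 3 fibroblast-rich libraries (0.0804) or with no filter (0.0725). Cldn7, the remaining one, had groups that overlapped and is named after its value was seen (log2 change 1.47, adjusted p = 0.0374, called in 9 of 19 alternatives). None of the 12 was called after the switch, and the smallest adjusted p was 0.0524.

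Of 20 Hippo pathway and Tead genes, 17 were tested between the media and none was called (smallest adjusted p 0.220). After the switch 1 of 16 was called, a share no larger than the 6.89% over all genes, so the count says nothing particular about this list. The called gene, Cyr61, a target of Yap and Tead factors, was 19.2, 22.5 and 11.4 FPKM before and 2.00, 4.24 and 3.93 after (log2 change -2.08, SE 0.30, adjusted p = 0.0181). Tead4 itself was not called in either comparison.

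**Figure D5:**
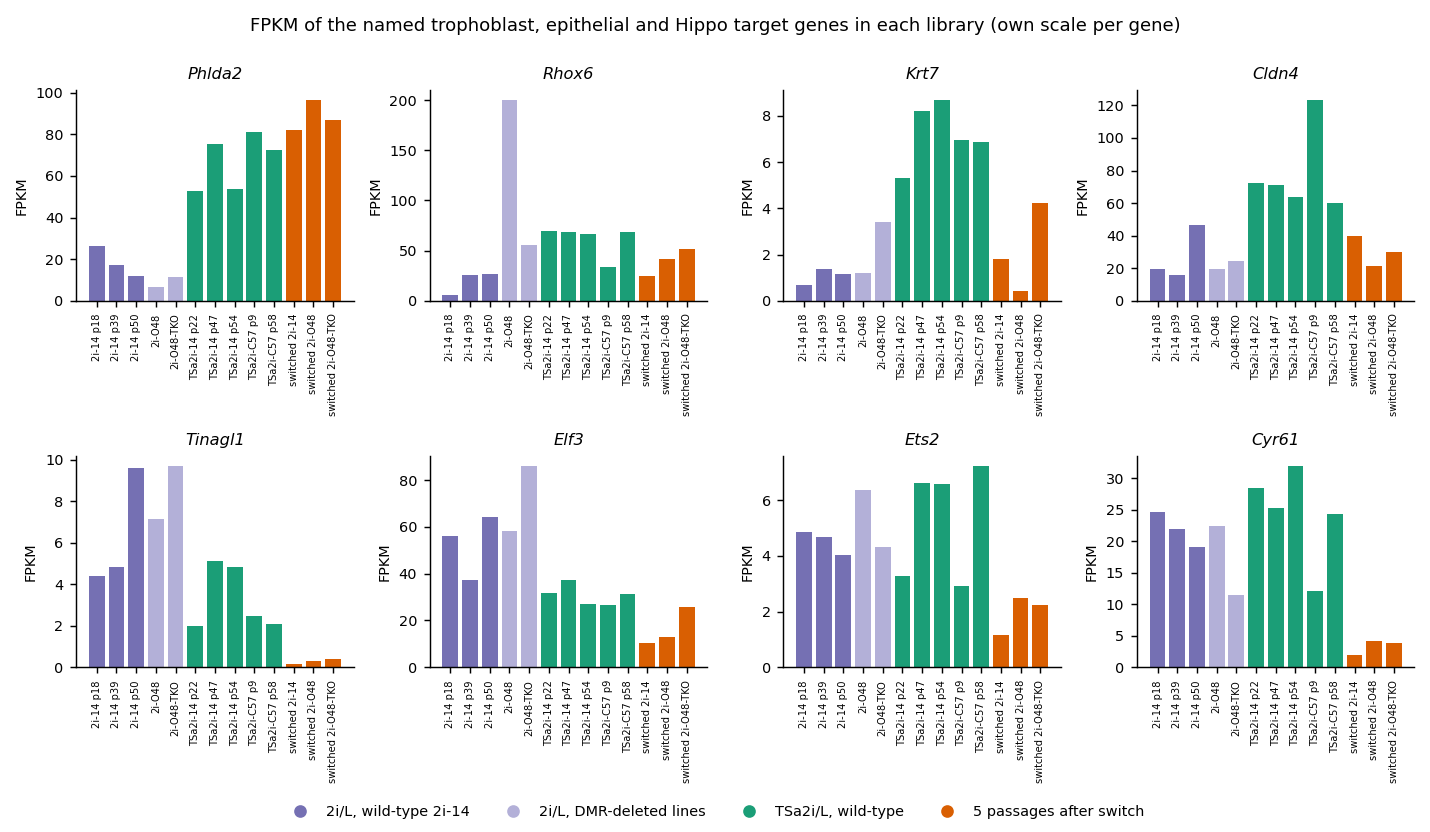
Bars give the FPKM of 8 named trophoblast, epithelial and Hippo target genes in the 13 libraries, on a separate linear scale from 0 for each gene, with colours for medium and genotype. Phlda2 was 52.8 to 96.4 FPKM in the TSa2i/L and switched libraries and 6.77 to 26.3 in the 2i/L libraries.

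Markers of other cell types were read from the same fits. Of the 12 pluripotency genes, all tested, 2 were called in each comparison, beside 7.57% of all genes between the media and 6.89% in the switch. Prdm14 and Sall4 were lower in TSa2i/L, with log2 changes of -0.97 (adjusted p = 0.0238) and -0.93 (adjusted p = 0.0149), and Prdm14 and Nanog were lower after the switch, with -1.39 (adjusted p = 0.0203) and -0.93 (adjusted p = 0.0483). Sall4 was not called without p18 or without p39 of 2i-14, or without the 3 fibroblast-rich libraries (adjusted p = 0.116). Prdm14 between the media was not called without any 1 of the 3 libraries of 2i-14, without p47 or p54 of TSa2i-14, with TSa2i-14 as the only TSa2i/L line, with no filter, or without the fibroblast-rich libraries (adjusted p = 0.134), and neither Prdm14 nor Nanog was called in the switch without 2i-O48-TKO. Nanog was called in 5 of 12 alternatives and not with median centring. None of the 12 fibroblast genes tested was called between the media. Of the Y-linked, primitive endoderm and neural lists 1 gene each was tested there and of the mesoderm list 2, with no call, too few to describe those lists. The neural gene was the tubulin gene Tubb3, whose groups did not overlap (log2 change -1.51, adjusted p = 0.0678). After the switch Sparc, of 3 fibroblast genes tested, and Tubb3 were called lower, though not without 2i-O48-TKO. The primitive endoderm list never summed to more than 5.46 FPKM in a library, and none of its genes reached 1 FPKM in all 13 libraries. The early embryonic genes of the Zscan4 and Tcstv families and their list mates summed to 165, 2.14 and 133 FPKM in 2i-14, and to at most 0.363 in TSa2i/L. Too few libraries passed the filter for any of that list to be tested.

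For the 5 members with an FPKM of at least 1 in 7 or more libraries, the most similar profiles were sought among 6312 genes whose mean FPKM was 5 or more. Krt8 and Krt18 were each other's closest gene. Tfap2c was closest to Trip6 (r = 0.914), Mum1 (0.911) and Abcc5 (0.900) over the 13 libraries. Ascl2 was closest to Rad51d (r = 0.918), Brwd1 (0.915) and Rcbtb1 (0.912). Tead4 was closest to Arl2bp (r = 0.945), Dtl (0.927) and Rbck1 (0.898). Krt8 was next closest to E2f6 (r = 0.881) and Prr3 (0.862), and Krt18 to Gtf2h1 (r = 0.837) and Zc3h14 (0.832). These values are the highest of many and describe these libraries only.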

How the data were processed

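The authors amplified full-length cDNA of haploid cells, aligned the RNA-seq reads to mm9 by TopHat, and computed the FPKM values that they deposited by Cufflinks, with no counts. The submitters' processing notes name TopHat2 2.0.11, Cufflinks 2.2.1 and Bowtie2 2.2.2. FPKM of repeated symbols was summed. Comparisons used limma 3.58.1 in R 4.3.3 on log2(FPKM + 1), which understates changes of low genes, with an intensity trend and two-sided p-values adjusted (Benjamini-Hochberg) over all genes tested, at 0.05. A gene was tested if its FPKM reached 1 in at least the number of libraries of the smaller group. The switch comparison had the line as a block, since the labels name the line of each pair. Depth was estimated from the values of single fragments on 3700 genes over 1500 bp, with lengths from GENCODE vM1. Methods were tested on simulated data. All 10 members and, per list and comparison, up to 4 called genes with the largest changes and no overlap were named, with the 3 most similar genes per member. Alternatives for genes of the other lists were added after the data were seen. Members and lists were chosen with earlier results of these data known. Nothing says that libraries are separate cultures of a passage, so p-values measure only the spread between these libraries. Python 3.11.15 was used otherwise. Methylation and chromatin samples were not analysed here.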

Additional observations from a re-analysis of the deposited data

Results flagged for a closer look

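No member stood apart from the other TSa2i/L libraries by the gap of its highest or lowest value, among the 7 members tested. Members whose log2(FPKM + 1) moved by over 0.5 in opposite directions in different lines after the switch were singled out. For Krt8 the change was 0.82 in 2i-14 and -3.02 in 2i-O48. For Ascl2 it was 0.52 in 2i-14 and -0.55 in 2i-O48. For Eomes it was 0.52 for line 2i-O48 and -0.84 for the TKO line. The 2i-14 changes are against p50. At p18 Krt8 and Ascl2 were 8.04 and 3.78 FPKM, above their switched values of 4.35 and 1.66. At p39 they were 1.07 and 0.959 FPKM, below those values. The direction in 2i-14 thus depended on the passage used as control. Each pair held 1 library per medium, so these differences between lines were not tested.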

How the results depend on the processing

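Members called stayed at 0 under another pseudocount, filter, scaling, trend or row choice in all 4 comparisons. Between the media 1 member, Ascl2, was called with the fibroblast covariate, and 0 to 1 when a library was left out. The 1 was Ascl2 without 2i-14 p18 or TSa2i-14 p54, and Eomes without TSa2i-C57 p9. In the fits without p18 and without p9 the called member passed the filter by TSa2i/L values alone, so neither is taken as a call. In the covariate fit and the fit without p54, 1 of the 3 values of Ascl2 in 2i-14 reached 1 FPKM. TSa2i/L values alone met the filter there too, so these fits are not taken as calls either. In the switch the count was 1 when p18 and p39 of 2i-14 joined p50 and 0 to 2 when a line was left out. That 1 is Gata3, which passed the filter by its 2i/L values alone, with all switched values under 3 fragments, and is not taken as a call.

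Counts of genes were less stable. Against 786 genes called between the media, the count was 374 with no filter, 458 with a mean FPKM of at least 5, 468 with TSa2i-14 only, 1250 when the DMR-deleted lines joined 2i-14, 229 without the 3 fibroblast-rich libraries, and 383 to 846 when a library was left out. Against 672 in the switch, limma called 0 with no filter (3206 of 18837 genes had an unadjusted p under 0.05). It called 369 above a mean FPKM of 5, 1505 when all passages of 2i-14 were controls, and 311 to 1461 when a line was left out. Without the line as a block it was 778, and the block changed no call of a member there or by passage. By passage it was 0 to 8 and by line 0 to 9 when a library was left out, and 49 by line without TSa2i-14 p54 and TSa2i-C57 p58. The cause of these differences in count was not tested.

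Of the called genes of the other lists, no sign turned under any alternative, and 59 of their values were no longer called. When a library was left out, other uncalled changes moved without turning. Between the media they were 0.14 to 1.21 for Krt8, 0.04 to 1.046 for Krt18, -0.54 to -0.0095 for Tfap2c, 0.082 to 0.49 for Tead4 and -0.46 to -0.19 for Gata3. By passage they were 0.35 to 1.053 for Eomes, 0.044 to 1.061 for Krt8, 0.13 to 0.60 for Tfap2c, 0.0084 to 0.41 for Tead4 and -0.51 to -0.0060 for Ascl2, and by line 0.25 to 0.68 for Ascl2. Signs turned only for differences that were not called. Krt8 and Krt18 between the media were -0.082 and -0.059 without the fibroblast-rich libraries. Ascl2 in the switch was 0.058 and 0.021 with median centring and quantile normalization, and -0.42 to 0.11 when a line was left out, and Krt8 was -1.59 to 0.33. Between lines Gata3 was -0.095 with a pseudocount of 0.1, and Krt18 was -0.042 without TSa2i-14 p54 and TSa2i-C57 p58. When a library was left out there, the ranges were -0.92 to 0.18 for Eomes, -0.49 to 0.29 for Tfap2c, -0.10 to 0.59 for Gata3, -0.93 to 0.47 for Krt8, -0.16 to 0.16 for Krt18 and -0.36 to 0.18 for Tead4. Groups of 2 to 5 libraries and the estimated depth limit Cdx2, Elf5, Hand1 and the switched values of Gata3.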
